A study of Homo sapiens with 12 samples.

Results

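The RNAs recovered with eIF4E from irradiated MDA-MB-231, a line of triple-negative human breast cancer cells, were compared with the RNAs recovered with control IgG from cells treated the same way. The members are 6 of the 12 arrays of the series, 3 of eIF4E precipitates and 3 of IgG precipitates, chosen by their titles, and every probe set on them that is not a control. The cells, kept in DMEM containing 10% FBS, received 2 Gy of X-rays and were lysed 6 h later. The other 6 arrays are the same 2 precipitates of cells that were not irradiated. They enter here as 1 reference for the irradiation and in the shared estimate of the spread, and all 4 groups hold 3 arrays. The design text calls the replicates biological. The labels do not say whether an eIF4E and an IgG precipitate of 1 number came from 1 lysate. A probe set of 1 gene only was on the array for 11963 genes, and 7178 of them were tested, their mean signal over the 12 arrays being above the 40th percentile of all genes. Where a gene had several probe sets, the brightest stood for it, leaving out names ending in _x_at unless the gene had no other. No array of unprecipitated RNA was analysed here, so the abundance of a message in the lysate and its recovery with an antibody cannot be told apart.

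eIF4E binds the methylated guanosine cap at the 5' end of messenger RNAs. Together with the scaffold eIF4G and the helicase eIF4A it forms eIF4F, which brings the small ribosomal subunit to the message, and the 4E-binding proteins block this by taking the place of eIF4G. Its supply is limiting in many cells and often raised in breast cancer, and messages differ in how much they depend on it. In RNA immunoprecipitation an antibody pulls eIF4E and whatever RNA is attached out of a lysate, and IgG, which has no target there, measures RNA that sticks unspecifically.

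Each array gives 1 MAS5 signal per probe set, an intensity on a linear scale set to 1 trimmed mean on every array. A value is therefore relative to the other genes of its array, and higher or lower below means so throughout. Differences are eIF4E minus IgG on the scale of log2(signal + 16) with the SE of the fit, so 1 is a doubling for bright genes and the change of dim genes is understated. A gene is called where its adjusted p was under 0.05 (limma, Benjamini-Hochberg over 7178 genes). Adjusted p-values below come from that fit, with 3 arrays a side, unless an alternative such as another scaling, probe set means or an array left out is named. Signals are given in the order of replicates 1, 2 and 3.

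Log2 signals correlated at 0.960 to 0.968 within the IgG group, at 0.977 to 0.982 within the eIF4E group and at 0.925 to 0.949 between them. The markers of the cell line were present on both kinds of array. All 10 markers listed for this line, among them VIM, CD44 and the keratins KRT8 and KRT18, passed the signal filter, and their summed signal ran from 82924 to 109771 on the IgG arrays and from 56019 to 66037 on the eIF4E arrays. Of 45 markers of liver, leukocytes, neurons and muscle on the array, 4 passed it, and the median signal of the 45 ran from 17.1 to 20.7 on the IgG arrays and from 15.0 to 20.2 on the eIF4E arrays. Of 11 luminal and epithelial markers on the array, 6 passed it. EPCAM had 560.5 to 1180 over these 6 arrays, GATA3 602.7 to 1207 and ERBB2 255.7 to 420.0. ESR1, PGR, CDH1 and FOXA1 were under the filter. The oestrogen receptor ESR1 reached at most 60.9 and the others at most 39.3 on these 6 arrays.

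Control probe sets differed between the antibodies. Alu, a repeat common in introns and between genes, had on its probe set signals of 53246, 42865 and 36876 with IgG and 18476, 16569 and 17728 with eIF4E, 2.49-fold lower by geometric mean. Alu was not alone in this. The control probe sets M27830_5, M27830_M and M27830_3 were lower with eIF4E by factors of 2.6, 3.0 and 4.2, without overlap. HUMRGE/M10098_3 was higher by a factor of 1.8, without overlap, and HUMRGE/M10098_5 and HUMRGE/M10098_M overlapped. For actin, the 3' signal divided by the 5' signal, which rises when RNA is broken or copied incompletely, was 5.38, 5.00 and 3.29 with IgG and 1.53, 1.33 and 1.33 with eIF4E. This ratio of GAPDH was 2.78, 2.47 and 2.23 with IgG and 1.31, 1.19 and 1.22 with eIF4E. The 5' probe set of actin was 3.66-fold higher with eIF4E, and its 3' probe set was 11350, 20067 and 7388 with IgG and 14741, 12529 and 13602 with eIF4E, with overlap. The Alu signal and both ratios separated the IgG arrays from the eIF4E arrays without overlap (exact permutation test, two-sided, p = 0.1 for each, the smallest that 3 arrays against 3 allow). Poly-A control transcripts added to the RNA before labelling had geometric means of 993.9 to 2130 with IgG and 15.1 to 37.0 with eIF4E, where the latter was not clear of the genes of other cell types. Hybridization controls, added after labelling, were 5.61-fold brighter with IgG by the geometric mean of bioC, bioD and cre. For bioB, a further such control left out of that mean, the ratio to bioC was 0.38, 0.040 and 0.042 with IgG and 0.40, 0.037 and 0.052 with eIF4E. In this ratio replicate 1 of both antibodies stood apart from the others. Apart from the bioB to bioC ratio, the 3' probe set of actin, HUMRGE/M10098_5 and HUMRGE/M10098_M, these measures divide the 6 arrays exactly as the antibody does. They differ together with the antibody in every comparison of genes described here, and their part in the results was not tested.

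**Figure D1:**
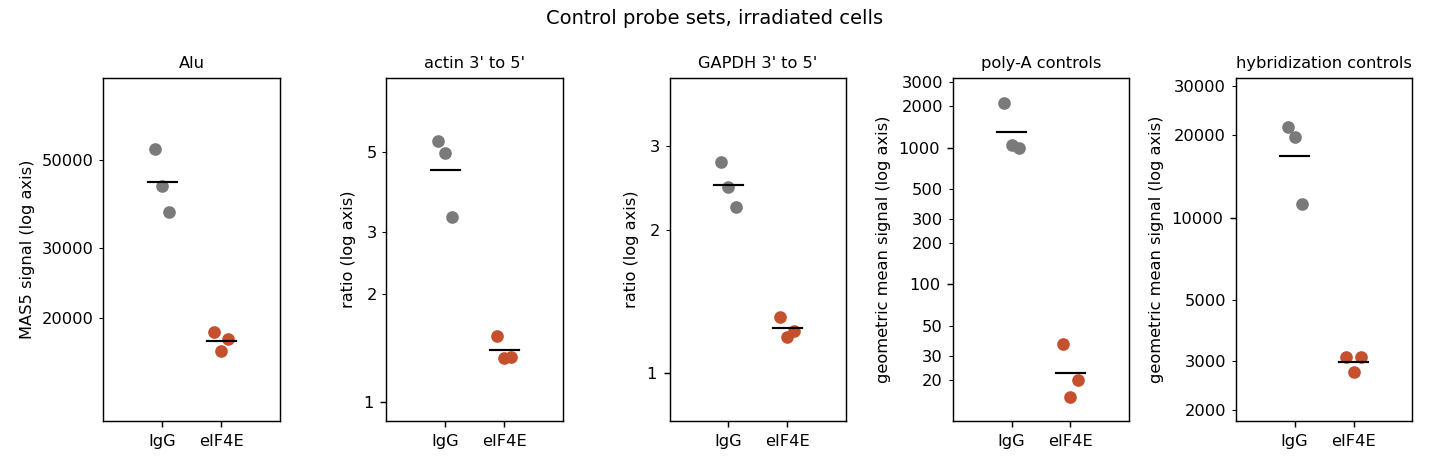
Control probe sets on the 6 arrays of irradiated cells, on log axes: the Alu signal, the 3' to 5' ratios of actin and GAPDH (no unit), and the geometric mean signals of the poly-A and hybridization controls. Each point is 1 array and each bar the geometric mean of 3. The Alu signal lay at 36876 or above on the IgG arrays and at 18476 or below on the eIF4E arrays.

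The comparison asks which RNAs came down with eIF4E above the IgG background 6 h after irradiation. Of the 7178 genes, 4273 (59.5%) were called, 1951 (27.2%) higher and 2322 (32.3%) lower with eIF4E. At least 2-fold differences were found in 868 of the higher and 1042 of the lower genes. In 4478 genes (62.4%) the 3 eIF4E arrays did not overlap the 3 IgG arrays. The median difference of all genes was -0.064, and it was 0.014 after quantile normalization and 0.083 after centring the arrays on their medians. The split of calls moved with it, to 2125 higher and 2055 lower after quantile normalization and to 2316 higher and 1917 lower after centring. It also depended on the choice of probe set. With genes averaged over their probe sets and filtered on such averages, 1947 were called higher and 1981 lower. Centring adds 0.147 to every difference, which moves medians near 0 by more than 1.5 times. A count of a gene group is to be read against these shares. Without replicate 1 of every group, the arrays apart in the bioB to bioC ratio, 4095 genes were called (1861 higher and 2234 lower), and 0 for the difference between treatments. With a minimum difference of 1.5-fold in the test itself, 1593 genes were called, and members with differences near 1 or under were often not among them. Where a gene is given averaged over its probe sets, that average was fitted over the same 7178 genes.

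The largest relative increases are shown by array. DCXR, a dicarbonyl and xylulose reductase, had signals of 135, 273 and 66.6 with IgG and 1437, 1643 and 1679 with eIF4E, a difference of 3.38 ± 0.30, adjusted p = 2.38e-07. The IgG arrays ranged widely at this low level, and every eIF4E array was far above them. LY6E, a lipid-anchored surface protein, had 11.2, 157 and 161 with IgG and 828, 526 and 936 with eIF4E (3.01 ± 0.53, adjusted p = 0.000147), with 1 IgG array near the level of unexpressed genes. ILK, a pseudokinase that ties integrins to actin, had 345, 608 and 475 with IgG and 3292, 3637 and 3739 with eIF4E (2.89 ± 0.19, adjusted p = 3.19e-08). BANF1, which bridges DNA and the nuclear envelope, had 425, 723 and 465 with IgG and 4266, 3776 and 3939 with eIF4E (2.89 ± 0.17, adjusted p = 2.53e-08). The spread within either antibody was small beside the gap for both genes. TOMM22, the central receptor of the mitochondrial outer membrane import pore, had 114, 183 and 143 with IgG and 1296, 1112 and 973 with eIF4E (2.82 ± 0.21, adjusted p = 7.34e-08). SELENOW, a small selenoprotein, had 239, 357 and 201 with IgG and 2223, 1659 and 1625 with eIF4E (2.74 ± 0.23, adjusted p = 1.82e-07). In both, the lowest eIF4E array was more than 4 times as bright as the highest IgG array.

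Next in size were TLE5, a short corepressor of the Groucho family, at 2.56 ± 0.28, and ATP6V0B, a proteolipid of the proton pump of lysosomes, at 2.45 ± 0.18. PPDPF, a small protein named for pancreas development, was at 2.44 ± 0.25, DDA1, a subunit of a cullin ubiquitin ligase, at 2.44 ± 0.18, and ARL2, a small GTPase of tubulin folding, at 2.38 ± 0.17 (adjusted p from 7.34e-08 to 1.36e-06). COPE, the epsilon subunit of the COPI vesicle coat, was at 2.42 ± 0.19 by the probe set that stood for it. Averaged over its probe sets it was at 1.16. The genes PCGF1, PCBD1, GSTM4, ERI3 and FLOT1, left out of the naming rule by its minimum signal of 100, had differences of 2.57 to 2.80, with mean IgG signals of 44.1 to 85.7.

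The largest relative decreases reached similar sizes. NOTCH2NLA, one of several near-identical partial copies of NOTCH2 whose signals cannot be told apart, was at -2.90 ± 0.26, adjusted p = 2.78e-07. UBR2, a ubiquitin ligase of the N-degron pathway, had signals of 2778, 1205 and 1380 with IgG and 268, 294 and 253 with eIF4E (-2.55 ± 0.24, adjusted p = 4.05e-07). TMF1, a Golgi coiled-coil tether, had 1477, 1730 and 2008 with IgG and 268, 311 and 285 with eIF4E (-2.52 ± 0.16, adjusted p = 2.74e-08). The eIF4E arrays of these genes were close to each other and well below every IgG array. EIF5B, the GTPase that joins the ribosomal subunits, had 773, 1299 and 979 with IgG and 124, 210.1 and 167 with eIF4E (-2.49 ± 0.27, adjusted p = 1.22e-06), and all 5 of its probe sets were called lower. PHIP, a bromodomain protein, had 1283, 826 and 1223 with IgG and 194, 167 and 213 with eIF4E (-2.42 ± 0.18, adjusted p = 7.40e-08). MKI67, the coat of mitotic chromosomes known as Ki-67, had 1633, 888 and 1628 with IgG and 240.2, 254 and 242 with eIF4E (-2.37 ± 0.21, adjusted p = 2.25e-07), with all 4 probe sets lower.

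Also among the 12 lowest were SRRM2, a giant scaffold of splicing speckles, at -2.36 ± 0.27, RBBP6, a ubiquitin ligase that binds the retinoblastoma protein, at -2.31 ± 0.18, and CHD9, a chromatin remodeller, at -2.31 ± 0.27. MYCBP2, a very large ubiquitin ligase, was at -2.30 ± 0.31, and LPP, a LIM protein of focal adhesions, at -2.30 ± 0.30 (adjusted p from 8.42e-08 to 1.02e-05 for these 5). PANK3, a kinase of coenzyme A synthesis, was at -2.33 ± 0.21, but its other probe set was at -0.047. Averaged over the probe sets of a gene, TMF1 was at -1.16, UBR2 at -1.62, SRRM2 at -1.03, CHD9 at -1.19, LPP at -1.18 and PANK3 at -1.19, all still called lower. Across the array, 1133 genes had more than 1 called probe set, and in 126 (11.1%) they were called in opposite directions.

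**Figure D2:**
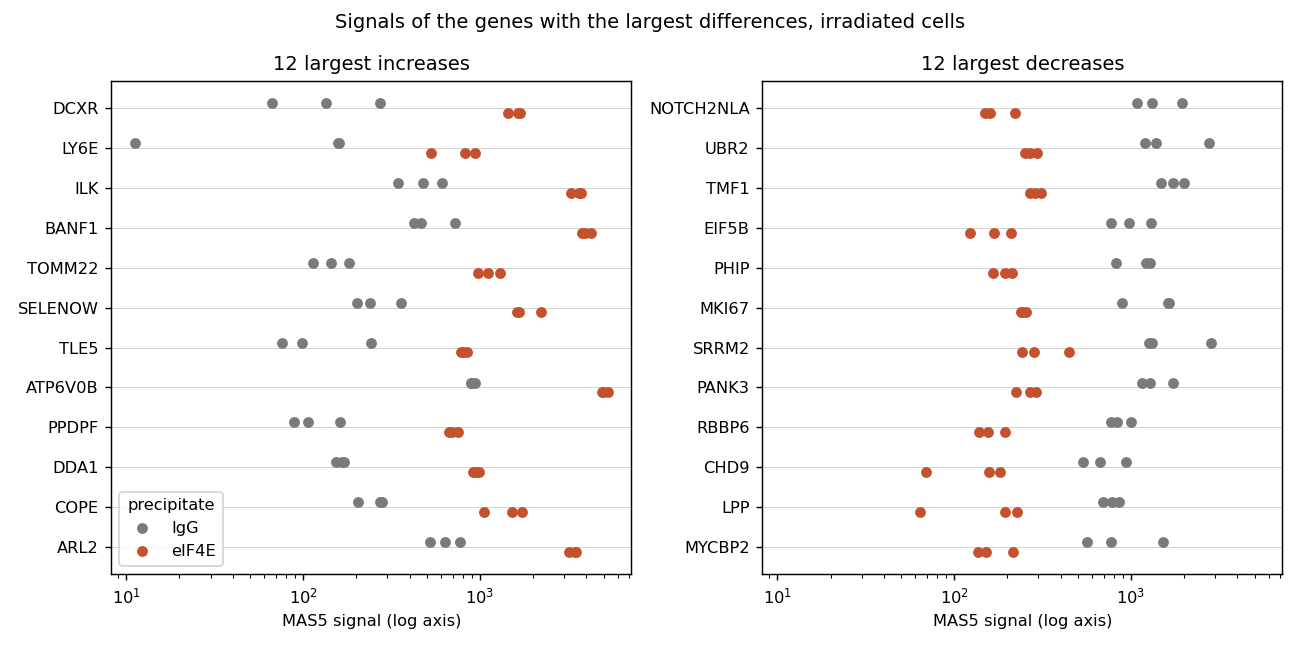
Signals (log axis) of the 12 genes with the largest increase and the 12 with the largest decrease, 3 IgG and 3 eIF4E arrays of irradiated cells each. Points are arrays. The genes were picked for groups that do not overlap and for the size of the gap, so neither is evidence here. The figure shows the spread within each group. DCXR and LY6E have the widest spread among their IgG arrays.

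Genes of the cap-binding machinery itself were mostly lower: 2 of 18 tested members were higher and 11 were lower (median -0.55), against 32.3% lower among all genes, and the median stayed below 0 with either scaling. EIF4E, the messenger of the precipitated protein, had signals of 1235, 2633 and 1676 with IgG and 1118, 1149 and 949 with eIF4E (-0.71 ± 0.23, adjusted p = 0.0144). The precipitate holds the protein, and the array reads the messenger, so this value is no check of the precipitation. Its scaffold partner EIF4G1 had 3590, 2636 and 2126 with IgG and 1436, 1485 and 1611 with eIF4E (-0.84 ± 0.17, adjusted p = 0.000481), without overlap. PABPC1, which binds the poly-A tail and closes the message into a loop with eIF4G, was at -0.79 ± 0.15, adjusted p = 0.00032, and at -0.25 (adjusted p = 0.0158) after quantile normalization. EIF4B, which stimulates the helicase, was at -0.94 ± 0.16, and CYFIP1, which binds eIF4E as a repressor, at -1.43 ± 0.23.

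The exception was EIF4EBP1, the best known repressor of eIF4E, whose messenger had 496, 622 and 488 with IgG and 2524, 2379 and 2442 with eIF4E (2.17 ± 0.19, adjusted p = 2.32e-07). All 3 eIF4E arrays were about 4 times as bright as the brightest IgG array. NCBP2, the small subunit that touches the cap in the nuclear cap-binding complex, was the only other called member above 0, at 0.54 ± 0.18, adjusted p = 0.0175. EIF4A1, the helicase of eIF4F, is not analysed here. EIF4E lost its call without IgG replicate 2 (-0.42, adjusted p = 0.0942) and without eIF4E replicate 3 (adjusted p = 0.0579). NCBP2 lost its call without replicate 1 of either antibody (adjusted p = 0.0666 and 0.0561) and was at 1.08 averaged over its probe sets.

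Other initiation factors split by subunit. Of the eIF3 scaffold, 2 of 12 tested members were higher and 6 were lower (median -0.31). EIF3A, its largest subunit, had signals of 4810, 2599 and 2979 with IgG and 1013, 759 and 662 with eIF4E (-2.04 ± 0.22, adjusted p = 1.12e-06), and EIF3L was at -0.85 ± 0.15. The small WD-repeat subunit EIF3I was at 0.65 ± 0.18 and EIF3G, which contacts RNA, at 0.55 ± 0.17 (adjusted p = 0.00597 and 0.009). EIF3G lost its call without eIF4E replicate 1 (adjusted p = 0.0546) and without replicate 1 of every group (0.28, adjusted p = 0.0928). Among factors of the eIF1, eIF2 and eIF5 groups, 8 of 20 tested members were higher and 4 were lower (median 0.097), with 0.24 after quantile normalization. EIF5A, a small factor that carries hypusine and keeps elongation moving, had 1075, 1716 and 1490 with IgG and 7050, 6836 and 6565 with eIF4E (2.27 ± 0.17, adjusted p = 8.34e-08), the opposite of EIF5B. EIF1B, a start-codon scanning factor, was at 0.80 ± 0.14 and EIF6, which keeps the ribosomal subunits apart, at 0.63 ± 0.17. EIF2AK2, the kinase PKR, which stops initiation on sensing double-stranded RNA, had 545, 663 and 559.6 with IgG and 121, 139 and 99.3 with eIF4E (-2.16 ± 0.19, adjusted p = 2.55e-07). Its other probe set was at -0.52 and the mean of both at -1.34. tRNA synthetases, which charge tRNAs, were lower in 12 of 17 tested members and higher in 1 (median -0.76, or -0.58 over probe set means). They ran from EPRS1 at -1.75 ± 0.31 to the small scaffold AIMP1 at 0.42 ± 0.12. AIMP1 was at 0.21 and not called (adjusted p = 0.141) averaged over its probe sets.

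Most messages of ribosomal proteins and elongation factors begin with a terminal oligopyrimidine tract, a C at the first base followed by a run of C and T, through which mTOR controls their translation. The first 20 bases of 7 such genes are shown because they are the part next to the cap. They come from RefSeq (GRCh38.p14), written 5' to 3' on the strand of the gene, and the capitals mark the unbroken run of C and T from the first base.
RPLP2, chr11:809967-809986, + strand: CCTTTTCCTCCCTgtcgcca
RPL27A, chr11:8682792-8682811, + strand: CTTTTTCgtctgggctgcca
RPS24, chr10:78033863-78033882, + strand: CTCTTTTCCTCCTTggctgt
RPL29, chr3:51995876-51995895, - strand: CTCTTCCggttctaggcgct
RPL36, chr19:5690295-5690314, + strand: CCTTCCgccacggccgtctc
EEF1A1, chr6:73521013-73521032, - strand: CTTTTTCgcaacgggtttgc
EEF2, chr19:3985444-3985463, - strand: CTCTTCCgccgtcgtcgccg

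These genes lay on both sides of 0. RPS24 and RPL29 are outside the naming rule and were added after their values were seen. RPLP2, an acidic stalk protein, had signals of 406, 306 and 191 with IgG and 36.3, 95 and 119 with eIF4E (-1.72 ± 0.34, adjusted p = 0.00036). RPL27A had 1247, 528 and 772 with IgG and 328, 296 and 368 with eIF4E (-1.24 ± 0.25, adjusted p = 0.00049), and RPS24 was at -0.96 ± 0.14, adjusted p = 1.97e-05, or -0.43 after quantile normalization. RPLP2 was at -0.90 averaged over its probe sets. The elongation factor EEF1A1, which delivers tRNAs, had 54134, 38390 and 37810 with IgG and 17171, 18174 and 20594 with eIF4E (-1.20 ± 0.17, adjusted p = 1.44e-05), with all 4 probe sets lower and -0.45 after quantile normalization. The translocase EEF2 had 14934, 10837 and 7884 with IgG and 3792, 4806 and 4204 with eIF4E (-1.35 ± 0.19, adjusted p = 1.64e-05). RPL36, in contrast, had 6520, 5521 and 5596 with IgG and 13340, 12649 and 11844 with eIF4E (1.10 ± 0.17, adjusted p = 3.14e-05) and RPL29 was at 0.59 ± 0.20, adjusted p = 0.0198. In RPL36 every eIF4E array was at least 1.8 times as bright as every IgG array, whereas in EEF1A1 the order was turned. RPL29 lost its call without IgG replicate 3 (adjusted p = 0.0680). Elongation and termination factors together had 0 higher and 4 lower of 8 tested members (median -0.46).

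Of the cytosolic ribosomal proteins, 6 of 57 tested members were higher and 20 were lower (median -0.22), and the other 31 did not pass. The highest were RPL39L, a copy of RPL39 expressed in few tissues, at 1.48 ± 0.22, adjusted p = 3.40e-05, and RPL36. The median was 0.053 after quantile normalization and -0.074 after centring, so the group has no direction apart from the scaling. Among 50 of them with a start in the reference, 33 began with C and at least 4 further C or T (CNNNN with each N a C or T, read on the sense strand only). That start was found in 345 of 6055 tested genes with a sequence (5.70%), against 4.60% of 15843 protein-coding genes of the table. Their median difference was -0.011, against -0.080 for tested genes without it, and 86 of the 345 were higher and 114 lower. These shares are near those of all genes tested, 27.2% higher and 32.3% lower. A match here is letters in an annotated start and no measured tract.

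Messages for mitochondrial proteins were mostly higher. Of complex I, the largest enzyme of the respiratory chain, 25 of 28 tested members were higher and 1 was lower (median 1.15). NDUFA3, a small accessory subunit, had signals of 990.3, 876 and 1113 with IgG and 4556, 4387 and 4154 with eIF4E (2.12 ± 0.20, adjusted p = 3.31e-07). NDUFS7, which carries the last iron-sulphur cluster before ubiquinone, had 659.6, 721 and 573 with IgG and 2673, 2265 and 2183 with eIF4E (1.84 ± 0.18, adjusted p = 4.79e-07), and NDUFB11 was at 1.76 ± 0.18. Every eIF4E array was well above every IgG array in these genes. NDUFS1, its largest subunit and the 1 lower member, had 1767, 992 and 1055 with IgG and 640.1, 574 and 486 with eIF4E (-1.10 ± 0.20, adjusted p = 0.000162).

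Of complexes II to V, 28 of 37 tested members were higher and 2 were lower (median 0.97). ATP5MC1, which encodes the c ring of ATP synthase, had 1192, 923 and 1002 with IgG and 4052, 4650 and 5114 with eIF4E (2.13 ± 0.16, adjusted p = 7.40e-08). ATP5F1D, the delta subunit of its stalk, had 290.4, 298 and 371 with IgG and 1478, 1492 and 1275 with eIF4E (2.10 ± 0.19, adjusted p = 2.32e-07), and UQCR10, a small subunit of complex III, was at 1.86 ± 0.18. The 2 lower members were ATP5F1A, the alpha subunit of ATP synthase, at -0.66 ± 0.15, adjusted p = 0.00105, and SDHA, the flavoprotein of complex II, at -0.63 ± 0.19, adjusted p = 0.0082. SDHA was at -0.36 without IgG replicate 1 and still called. Proteins of the mitochondrial ribosome, which makes the few proteins encoded in mitochondrial DNA, were higher in 42 of 48 tested members and lower in 1 (median 1.07). MRPS17 had 779.8, 979.5 and 1084 with IgG and 5621, 4312 and 4427 with eIF4E (2.32 ± 0.16, adjusted p = 5.02e-08), MRPL34 was at 2.20 ± 0.21 and MRPL13 at 1.90 ± 0.16. MRPS27, the lower member, was at -0.73 ± 0.15, adjusted p = 0.000445.

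The import machinery had 14 of 23 members higher and 4 lower (median 0.74). After TOMM22, the highest were TIMM17B, a subunit of the inner membrane channel (2.25 ± 0.18), and TOMM40, the outer membrane pore itself (1.97 ± 0.19). The lowest was TOMM70, the receptor for carrier proteins, with signals of 4134, 3040 and 4103 with IgG and 1158, 931 and 1265 with eIF4E (-1.73 ± 0.16, adjusted p = 2.91e-07). Its other probe set was at -0.15 and the mean of both at -0.94. The chaperones HSPD1 (-1.23 ± 0.14) and HSPA9 (-1.01 ± 0.18) were lower too. The medians of these 4 groups were above 0 with either scaling, between 0.79 and 1.09 after quantile normalization.

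**Figure D3:**
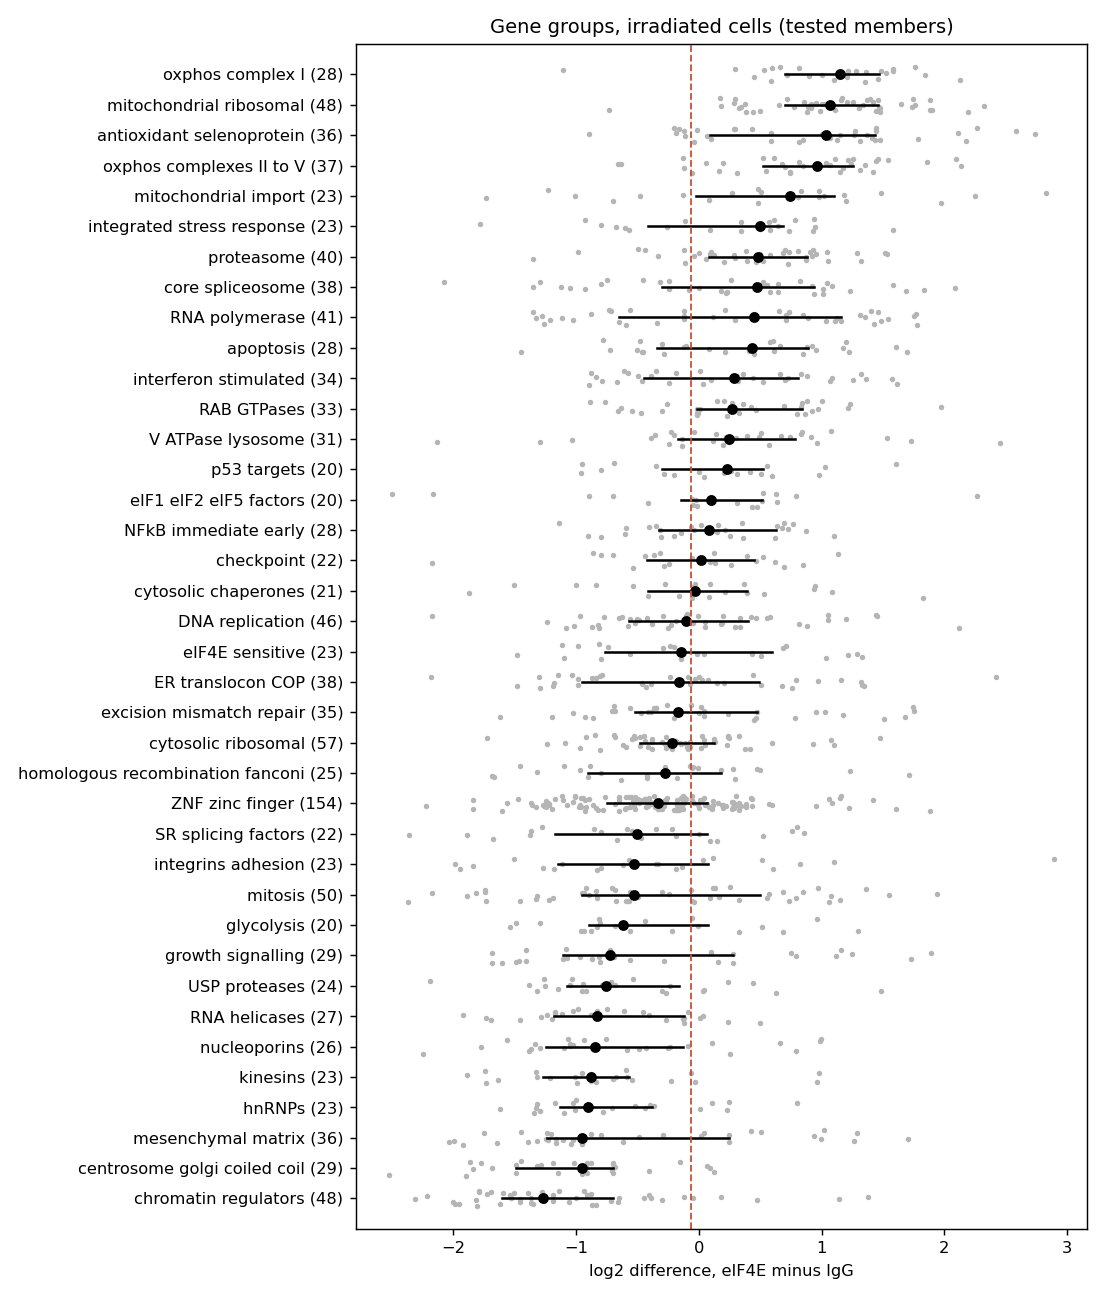
Log2 difference (eIF4E minus IgG, irradiated cells) of the tested members of the 38 gene groups with at least 20 of them. Each grey point is a gene, the black dot the median of the group and the line its quartiles; the dashed line is the median of all 7178 genes, -0.064. Complex I lies furthest to the right (median 1.15) and chromatin regulators furthest to the left (-1.27).

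In the nucleus, the messages of chromatin regulators were lower in 40 of 48 tested members and higher in 2 (median -1.27, or -0.98 over probe set means). SMARCA4, the BRG1 motor of SWI/SNF remodellers, had signals of 2707, 1841 and 1927 with IgG and 428, 431 and 482 with eIF4E (-2.21 ± 0.19, adjusted p = 1.99e-07), with all 5 probe sets lower and their mean at -1.28. SMARCC1, a core subunit of the same complex, had 2210, 2093 and 2018 with IgG and 357, 665 and 569.7 with eIF4E (4-fold lower on the fitted scale, adjusted p = 5.64e-07). The higher members were SMARCB1, a small core subunit, at 1.38 ± 0.22, adjusted p = 4.69e-05, and the histone deacetylase HDAC3 at 1.14 ± 0.14, adjusted p = 3.19e-06. Averaged over its probe sets SMARCB1 was at 0.59 (adjusted p = 0.0447), and it lost its call when the filter was set on such averages (adjusted p = 0.0564). SMARCB1 and SMARCC1 belong to 1 complex. No IgG array overlapped an eIF4E array in any of these 4 genes, as in 62.4% of all genes tested.

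Cohesin, condensin and their loaders, which fold and hold together chromosomes, were lower in all 18 tested members (median -1.24). NIPBL, the cohesin loader, had 1112, 523 and 696 with IgG and 160.1, 208 and 182 with eIF4E (-1.93 ± 0.22, adjusted p = 2.51e-06). SMC2, the ATPase of condensin, had 1578, 1486 and 1825 with IgG and 501, 449 and 458 with eIF4E (-1.76 ± 0.14, adjusted p = 8.42e-08). SMC1A, the ATPase of cohesin, had 4164, 4155 and 4240 with IgG and 1277, 1445 and 1234 with eIF4E (-1.66 ± 0.16, adjusted p = 4.88e-07). The IgG arrays of SMC1A lay within a few percent of each other, those of NIPBL far apart. The condensin subunit NCAPH was nearest to 0, at -0.50 ± 0.17, adjusted p = 0.0175. It lost its call after centring (adjusted p = 0.0752) and without IgG replicate 1, eIF4E replicate 1 or eIF4E replicate 2 (adjusted p = 0.0664, 0.0650 and 0.0569), and was at -0.32 without replicate 1 of every group.

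Members of the hnRNPs, RNA helicases and nucleoporins were mostly lower. Of hnRNPs, which coat nascent transcripts, 18 of 23 were lower and 1 higher (median -0.90, or -0.65 over probe set means). HNRNPA2B1 had 15742, 13089 and 14026 with IgG and 5472, 5403 and 5937 with eIF4E (-1.34 ± 0.12, adjusted p = 2.18e-07), and RALY was the 1 higher member at 0.80 ± 0.18, adjusted p = 0.00123. Of DEAD-box and related RNA helicases, 16 of 27 were lower and 1 higher (median -0.83, or -0.55 over probe set means). The ribosome assembly helicase DDX21 had 5735, 4987 and 5255 with IgG and 1302, 1548 and 1335 with eIF4E (-1.92 ± 0.12, adjusted p = 2.74e-08). The higher member was DDX41, at 0.50 ± 0.15. Nucleoporins were lower in 16 and higher in 4 of 26 (median -0.85, or -0.55 over probe set means). TPR, the filament of the pore basket, had 3669, 1479 and 2145 with IgG and 464, 480.2 and 450.3 with eIF4E (-2.25 ± 0.24, adjusted p = 1.19e-06), or -1.25 averaged over its probe sets, and NUP37, a small member of the Y-shaped ring, had 1371, 1235 and 1239 with IgG and 2632, 2486 and 2593 with eIF4E (1.00 ± 0.12, adjusted p = 3.61e-06).

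The spliceosome had members on both sides. Among core proteins 20 of 38 were higher and 9 lower (median 0.48). The ring protein LSM2 had 892, 1402 and 1060 with IgG and 4300, 4757 and 5106 with eIF4E (2.08 ± 0.16, adjusted p = 7.79e-08). Its relative LSM4 was at 1.83 ± 0.18 and SNRPC of the U1 particle at 1.68 ± 0.17. PRPF8, the very large protein at the catalytic centre, had 3730, 1523 and 1415 with IgG and 548, 438 and 417 with eIF4E (-2.07 ± 0.30, adjusted p = 1.99e-05), and SF3B1, which grips the branch point, was at -1.30 ± 0.25, adjusted p = 0.000328. SR proteins and their partners, which choose splice sites, were lower in 12 and higher in 4 of 22 (median -0.51, or -0.24 over probe set means). SON, a speckle scaffold, was at -1.68 ± 0.20 with all 4 probe sets lower, and SRSF5 at 0.86 ± 0.15, or 0.52 averaged over its probe sets.

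RNA polymerases and general transcription factors had 21 higher and 13 lower of 41 (median 0.45). POLR2E, a small subunit shared by the 3 polymerases, had 1295, 1931 and 1396 with IgG and 5372, 5338 and 4946 with eIF4E (1.77 ± 0.20, adjusted p = 1.89e-06). POLR3K, the small cleavage subunit of polymerase III, was at 1.77 ± 0.15. The second largest subunit of polymerase II, POLR2B, had 4955, 2536 and 3203 with IgG and 1362, 1217 and 1512 with eIF4E (-1.32 ± 0.19, adjusted p = 2.19e-05), and its counterpart POLR3B was at -1.27 ± 0.20. Replication-dependent histones, whose messages lack a poly-A tail, had 40 members on the array, of which only 13 passed the signal filter. Of these 13, 9 were higher and 0 lower (median 0.90), and the others were not measured here. H1-2, a linker histone, had 676, 840.2 and 623 with IgG and 2850, 2986 and 2529 with eIF4E (1.95 ± 0.15, adjusted p = 7.40e-08). H4C11 and H2AC6 were at 2.02 ± 0.23 and 1.62 ± 0.25, though near-identical copies make single members uncertain. Zinc finger proteins of the ZNF series had 54 lower and 11 higher of 154 (median -0.33; with quantile normalization, -0.22), from ZNF587 at -2.22 ± 0.23 to the short ZNF580 at 1.88 ± 0.25.

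Genes of protein turnover were grouped by enzyme class. Of proteasome genes, 24 of 40 tested members were higher and 5 were lower (median 0.48). PSMD8 and PSMC4 of the regulatory cap were at 1.53 ± 0.15 and 1.51 ± 0.21, and PSMB9, a catalytic subunit of the immunoproteasome, had 739, 907 and 916 with IgG and 1753, 2391 and 2357 with eIF4E (1.32 ± 0.21, adjusted p = 4.55e-05). PSMD1, the largest subunit of the cap, had 5597, 2459 and 3594 with IgG and 1743, 1372 and 1235 with eIF4E (-1.35 ± 0.22, adjusted p = 8.45e-05). The E2 ubiquitin-conjugating enzymes were higher in 11 and lower in 2 of 19 (median 0.45), led by UBE2L6 (1.17 ± 0.20) and UBE2S (1.06 ± 0.15), while UBE2O, which is far larger, was at -1.45 ± 0.38, adjusted p = 0.00361. Ubiquitin-specific proteases, which remove the tag, were lower in 15 and higher in 2 of 24 (median -0.75). USP9X had 9372, 5203 and 5518 with IgG and 1338, 1520 and 1369 with eIF4E (-2.19 ± 0.19, adjusted p = 2.05e-07), with both probe sets alike, and USP21 was at 1.48 ± 0.22, adjusted p = 3.43e-05.

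Chaperones were called in both directions, against 27.2% higher and 32.3% lower among all genes. The TRiC chaperonin and prefoldin had 3 higher and 2 lower of 12, with a median of -0.083 that was above 0 after centring (0.064) and over probe set means (0.081). The higher members were all prefoldins, PFDN5 (1.45 ± 0.15), PFDN1 (1.07 ± 0.19) and PFDN2 (0.71 ± 0.19), and the lower ones both chaperonin subunits, CCT6A (-0.85 ± 0.16) and CCT2 (-0.55 ± 0.15). CCT2 was at -0.15 and not called (adjusted p = 0.326) averaged over its probe sets. Cytosolic chaperones had 5 higher and 5 lower of 21, with a median of -0.033 (-0.023 after quantile normalization and 0.11 after centring). The small heat shock protein HSPB1 had 1580, 1771 and 1015 with IgG and 5609, 4999 and 4587 with eIF4E (1.82 ± 0.20, adjusted p = 1.19e-06). Whereas HSP90AA1, the stress-induced HSP90, had 43259, 37744 and 28714 with IgG and 14607, 11359 and 12449 with eIF4E (-1.50 ± 0.15, adjusted p = 7.19e-07) and HSPH1, a nucleotide exchange factor of HSP70, was at -1.87 ± 0.18. Each of the 3 separated the antibodies without overlap, as did 62.4% of all genes tested. Of endoplasmic reticulum chaperones, 5 of 17 tested members were higher and 7 were lower (median -0.31), and their median was -0.16 after centring and -0.13 over probe set means. The lectin chaperone CANX was at -1.55 ± 0.14 and HSPA5, known as BiP, at -1.22 ± 0.16. CALR, the soluble relative of CANX, was at 1.21 ± 0.25 by the probe set that stood for it. Another was at -0.58, so CALR has no single direction. Averaged over its probe sets it was at 0.12 (adjusted p = 0.536).

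Among trafficking genes, in the COPI and COPII coats and the translocon, 10 of 38 were higher and 18 lower (median -0.16, -0.015 after centring and -0.011 over probe set means). SEC61B, a small subunit of the translocon, had 4473, 3856 and 4268 with IgG and 11771, 9489 and 10491 with eIF4E (1.33 ± 0.14, adjusted p = 8.52e-07). SEC24A, a large cargo adaptor of COPII, had 1202, 1030 and 992 with IgG and 179.8, 286 and 219 with eIF4E (-2.18 ± 0.22, adjusted p = 7.25e-07), and COPB1, the beta subunit of COPI, was at -1.30 ± 0.17. COPE and COPB1 belong to 1 coat. Of the V-ATPase and lysosome, 13 of 31 tested members were higher and 3 were lower (median 0.25). Its membrane subunits ATP6V0C and ATP6V0D1 were at 1.73 ± 0.21 and 1.54 ± 0.17, and ATP6V1A, the catalytic subunit, had 4558, 2729 and 3125 with IgG and 846, 707 and 739 with eIF4E (-2.13 ± 0.20, adjusted p = 3.79e-07). Its other probe set was at -0.21 and the mean of both at -1.17.

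Scaffolds and motors of the cytoskeleton were mostly lower. Centrosome and Golgi coiled-coil proteins were lower in 24 and higher in 0 of 29 tested members (median -0.95, or -0.74 over probe set means). GCC2, a golgin, was at -1.89 ± 0.19 and the kinase ROCK2 at -1.86 ± 0.17, with ROCK2 at -1.23 averaged over its probe sets. Kinesins and their light chains were lower in 17 and higher in 1 of 23. KIF11, the motor that separates spindle poles, had 1642, 1764 and 1537 with IgG and 413, 605 and 445 with eIF4E (-1.74 ± 0.17, adjusted p = 6.08e-07). KIF5B, the ubiquitous cargo motor, had 6035, 6060 and 6182 with IgG and 1892, 1865 and 1732 with eIF4E (-1.73 ± 0.12, adjusted p = 7.34e-08), and the higher member was KIF22 (0.98 ± 0.21). RAB GTPases, small regulators of vesicle traffic, were higher in 14 and lower in 5 of 33, led by RAB5C of early endosomes with 308, 398 and 372 with IgG and 1526, 1281 and 1554 with eIF4E (1.97 ± 0.20, adjusted p = 6.79e-07).

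Irradiation breaks DNA, and the genes that sense and repair breaks were examined by pathway. The medians of these groups lay between -0.41 and 0.018. Each group had members called in both directions, as did all genes tested, with 27.2% higher and 32.3% lower. Of homologous recombination and Fanconi genes, 4 of 25 tested members were higher and 11 were lower (median -0.27), with -0.13 after centring and -0.17 over probe set means. BRCA1 had signals of 1023, 682 and 601 with IgG and 303, 263 and 229.5 with eIF4E (-1.45 ± 0.20, adjusted p = 1.42e-05). Its partner BARD1 had 1162, 1066 and 1293 with IgG and 364, 304 and 399 with eIF4E (-1.68 ± 0.15, adjusted p = 3.03e-07). RAD50, which tethers broken ends, was at -1.67 ± 0.19, adjusted p = 2.05e-06. RPA3 and RPA2, the small subunits of the protein that coats single strands, were higher, RPA3 with 1281, 1587 and 1556 with IgG and 4042, 5783 and 4870 with eIF4E (1.71 ± 0.15, adjusted p = 2.20e-07) and RPA2 at 1.23 ± 0.14. No IgG array overlapped an eIF4E array in these 5 genes, as in 62.4% of all genes tested.

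Of end joining and break signalling genes, 4 of 13 tested members were higher and 6 were lower (median -0.41), with a median of -0.26 after quantile normalization and -0.13 over probe set means. PRKDC, the catalytic subunit of DNA-PK, had 1465, 838 and 781 with IgG and 294, 448 and 279 with eIF4E (-1.52 ± 0.26, adjusted p = 0.00012), or -0.72 averaged over its probe sets. MDC1, the platform at marked breaks, had 1124, 664 and 797 with IgG and 279.6, 215 and 228 with eIF4E (-1.75 ± 0.19, adjusted p = 1.37e-06). H2AX, the histone phosphorylated at breaks, had 5082, 6498 and 4505 with IgG and 10075, 10045 and 10434 with eIF4E (0.94 ± 0.14, adjusted p = 3.13e-05). BABAM2 and BABAM1, small subunits of a complex that edits ubiquitin at breaks, were at 1.09 ± 0.16 and 0.85 ± 0.13. The checkpoint group had 5 higher and 5 lower of 22, with a median of 0.018 (-0.0023 after quantile normalization and 0.18 over probe set means). The kinase ATR had 1229, 557 and 706 with IgG and 142, 199.8 and 148 with eIF4E (-2.17 ± 0.24, adjusted p = 1.38e-06). RAD1, a part of the sliding clamp that activates it, had 586, 685 and 784 with IgG and 1199, 1683 and 1695 with eIF4E (1.13 ± 0.17, adjusted p = 3.01e-05), or 0.65 averaged over its probe sets. CHEK1, the kinase downstream of ATR, was at 0.12 ± 0.16, adjusted p = 0.526, with overlapping arrays.

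Of excision and mismatch repair genes, 9 of 35 tested members were higher and 11 were lower (median -0.17), and their median was -0.037 after quantile normalization, -0.022 after centring and -0.066 over probe set means. The glycosylase MPG (1.75 ± 0.18), the endonuclease subunit ERCC1 (1.75 ± 0.19) and the tiny TFIIH subunit GTF2H5 (1.68 ± 0.13) were higher, and the mismatch sensor MSH6 had 5376, 2938 and 3560 with IgG and 1618, 1092 and 1073 with eIF4E (-1.62 ± 0.21, adjusted p = 6.29e-06), or -0.76 averaged over its probe sets. Among listed targets of p53, 6 of 20 tested members were higher and 4 were lower (median 0.23). The shares among all genes tested were 27.2% higher and 32.3% lower. BAX, which opens mitochondria in apoptosis, had 674, 778 and 826 with IgG and 2468, 2212 and 2333 with eIF4E (1.60 ± 0.15, adjusted p = 3.29e-07), and DDB2, a sensor of damaged bases, was at 1.02 ± 0.18. POLH, a translesion polymerase, was at -0.96 ± 0.25, adjusted p = 0.00375. CDKN1A, the inhibitor that stops the cycle, was at 0.51 ± 0.26, adjusted p = 0.0985, and it passed after centring (adjusted p = 0.0427) and without eIF4E replicate 2 (adjusted p = 0.0330).

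Cell division genes were also called in both directions, as were all genes tested (27.2% higher and 32.3% lower). Of mitosis genes, 13 of 50 tested members were higher and 26 were lower (median -0.53). TOP2A, which untangles chromosomes, had 14798, 7708 and 7284 with IgG and 2600, 1916 and 1790 with eIF4E (-2.17 ± 0.22, adjusted p = 7.36e-07). CENPE, a kinetochore motor, had 1136, 794 and 1187 with IgG and 255, 247 and 295 with eIF4E (-1.89 ± 0.18, adjusted p = 3.61e-07). CENPA, the short histone that marks centromeres, had 295, 350.3 and 457 with IgG and 1369, 1498 and 1442 with eIF4E (1.94 ± 0.17, adjusted p = 1.88e-07), and CENPM, a small kinetochore protein, was at 1.55 ± 0.13. Of DNA replication genes, 12 were higher and 15 lower of 46, and the median of -0.10 was above 0 after centring (0.047) and near it over probe set means (-0.0046). POLD4, the smallest subunit of polymerase delta, had 91.4, 197 and 47.2 with IgG and 446, 482 and 503 with eIF4E (2.12 ± 0.38, adjusted p = 0.000153), with IgG arrays far apart from each other. GINS2 of the replicative helicase was at 1.45 ± 0.13, and POLA1, the catalytic subunit of polymerase alpha, at -1.23 ± 0.20, adjusted p = 5.69e-05.

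Messages often described as dependent on eIF4E did not move as 1 group: 8 were higher, 8 lower and 7 did not pass of 23. Among all genes, 27.2% were higher and 32.3% lower. The median of these messages was -0.15 (-0.081 after quantile normalization, 0.0018 after centring and 0.046 over probe set means). ODC1, which starts polyamine synthesis, had signals of 2089, 2796 and 2913 with IgG and 5766, 5612 and 4618 with eIF4E (1.04 ± 0.16, adjusted p = 4.48e-05). CCND3, a G1 cyclin, had 1389, 2465 and 1745 with IgG and 3714, 4989 and 5215 with eIF4E (1.33 ± 0.20, adjusted p = 2.46e-05). CCND1, the related cyclin most often named as an eIF4E target, had 3495, 3302 and 3086 with IgG and 1995, 1590 and 1426 with eIF4E (-0.99 ± 0.18, adjusted p = 0.000232). The 2 cyclins lay on opposite sides, each without overlap, as in 62.4% of all genes tested. SAT1, which breaks polyamines down, was at 1.29 ± 0.17 and CDK4, the kinase partner of D cyclins, at 1.22 ± 0.15.

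The survival factor MCL1 had 4257, 3868 and 4171 with IgG and 2057, 1794 and 1871 with eIF4E (-1.10 ± 0.13, adjusted p = 2.07e-06), or -0.51 and still called averaged over its probe sets. Its relative BCL2 was at -1.48 ± 0.25, or -0.40 (adjusted p = 0.177) averaged over its probe sets. BIRC5, known as survivin, had 1751, 3026 and 2693 with IgG and 4741, 3571 and 3547 with eIF4E (0.69 ± 0.18, adjusted p = 0.00438), and 0.45 without IgG replicate 1. Without replicate 1 of every group it lost its call (0.32, adjusted p = 0.0533). MYC was at -0.29 ± 0.15, adjusted p = 0.115, with overlapping arrays, and passed without IgG replicate 3 (-0.43, adjusted p = 0.0277). VEGFA, the angiogenic factor, was at -0.74 ± 0.15, adjusted p = 0.000533 by the probe set that stood for it. Averaged over its probe sets it was at 0.32 (adjusted p = 0.123), so its direction depends on the probe set. ACTB, beta-actin, was at 0.047 ± 0.22, adjusted p = 0.863, and passed without IgG replicate 2 (0.38, adjusted p = 0.0496). GAPDH was at -0.43 ± 0.18, adjusted p = 0.0447 and lost its call after quantile normalization (-0.10, adjusted p = 0.393) and after centring (adjusted p = 0.215). Its control probe sets were 1.31-fold higher with eIF4E at the 5' end and 1.53-fold lower at the 3' end, so the sign differed between probe sets of 1 gene. Of the arrays, 5 of 6 ended the call of GAPDH when left out in turn, with adjusted p from 0.0556 to 0.184.

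In growth signalling, 7 of 29 tested members were higher and 17 were lower (median -0.72), and the median over probe set means was -0.16. AKT1, a kinase of the survival pathway, had 143, 185 and 176 with IgG and 632, 693 and 669 with eIF4E (1.89 ± 0.25, adjusted p = 1.04e-05). MAPK3, the kinase ERK1, was at 1.25 ± 0.28. PIK3R1, the regulatory subunit of PI3 kinase, was at -1.60 ± 0.28, or -0.60 averaged over its probe sets, and MTOR, the kinase that phosphorylates the 4E-binding proteins, at -1.68 ± 0.41. Averaged over its probe sets MTOR was at -0.45 and not called (adjusted p = 0.317), and without replicate 1 of every group at -0.97 and not called (adjusted p = 0.0574). In apoptosis genes 12 of 28 were higher and 3 lower (median 0.43), with BAD (1.70 ± 0.20) and BID (1.22 ± 0.13) beside BAX, and APAF1, the apoptosome scaffold, at -1.45 ± 0.25, or -0.39 (adjusted p = 0.0983) averaged over its probe sets. Integrin and adhesion genes were higher in 4 and lower in 11 of 23 (median -0.53, or -0.21 over probe set means). ITGAV, an integrin chain, had 2661, 2160 and 1921 with IgG and 458, 736 and 499 with eIF4E (-1.98 ± 0.25, adjusted p = 6.22e-06) and VCL, vinculin, was at -1.83 ± 0.20, or -1.17 averaged over its probe sets.

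Genes of the mesenchymal state and the matrix were lower in 23 and higher in 6 of 36 (median -0.95, or -0.44 over probe set means). ZEB1, which represses epithelial genes, had 1882, 1841 and 2062 with IgG and 518, 387 and 519.7 with eIF4E (3.99-fold lower on the fitted scale, adjusted p = 7.34e-08), VIM, the intermediate filament vimentin, was at -1.04 ± 0.19, adjusted p = 0.000186, and MYL9, a myosin light chain, had 373, 495 and 265 with IgG and 1271, 1253 and 1155 with eIF4E (1.70 ± 0.25, adjusted p = 2.44e-05). CD44, the hyaluronan receptor, had 13340, 12639 and 11470 with IgG and 3043, 3149 and 2926 with eIF4E (-2.03 ± 0.12, adjusted p = 2.53e-08), with 5 of its 6 probe sets called lower, 1 at 0.17 and their mean at -0.71.

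Antioxidant and selenoprotein genes were higher in 25 of 36 tested members and lower in 1 (median 1.03). GSTM1, a glutathione transferase, had 129, 112 and 221 with IgG and 587, 830.5 and 935 with eIF4E (2.26 ± 0.24, adjusted p = 1.21e-06), with near-identical GSTM relatives on the array. TXNRD1, thioredoxin reductase and the lower member, had 10543, 10702 and 11240 with IgG and 5680, 6080 and 5712 with eIF4E (-0.89 ± 0.12, adjusted p = 7.96e-06). Of glycolysis genes 12 were lower and 4 higher of 20 (median -0.62, -0.34 after quantile normalization and -0.26 over probe set means). The transporter SLC2A1 was at -1.29 ± 0.24, and TPI1, triosephosphate isomerase, at 0.69 ± 0.13. Interferon-stimulated genes were higher in 14 and lower in 7 of 34 (median 0.29). IFI27 had 503, 553 and 467 with IgG and 1591, 1633 and 1532 with eIF4E (1.62 ± 0.17, adjusted p = 1.09e-06), and the RNA sensor RIGI was at -0.89 ± 0.21. Of genes of the integrated stress response, 9 of 23 tested members were higher and 6 were lower (median 0.50), with the transcription factor DDIT3 at 1.58 ± 0.23 and the cystine transporter SLC7A11 at -1.78 ± 0.28. Of NF-kB and immediate early genes, 7 of 28 tested members were higher and 4 were lower (median 0.085), with JUN at -1.14 ± 0.28. Of sterol synthesis genes, 5 of 19 tested members were higher and 4 were lower (median 0.21), with PMVK at 1.12 ± 0.16. The shares among all genes tested were 27.2% higher and 32.3% lower, and the share of higher members in these last 2 groups was near that. Of S100 and annexin genes, picked by symbol, 8 of 20 tested members were higher and 3 were lower (median 0.31). These members include the pseudogenes ANXA2P1, ANXA2P2 and ANXA2P3, and S100PBP, which is not an S100 protein. The small calcium-binding S100A11 had 2207, 2544 and 2030 with IgG and 9536, 8709 and 10216 with eIF4E (2.06 ± 0.15, adjusted p = 7.40e-08).

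Gene length, which took no part in the choice of arrays, differed between genes at both ends. Over 7177 genes with a length in RefSeq (GRCh38.p14, from first to last base of the gene, introns included), Spearman's correlation of length and log2 difference was -0.47, given as a description, since the genes share the same 6 arrays. In the quintile of the shortest genes, 85 to 10373 bases, 752 of 1436 were higher (52.4%) and 156 lower (10.9%), the median being 0.55. The median was 0.23, -0.098 and -0.37 in the 3 middle quintiles. In the quintile of the longest genes, of 90504 bases or more, 123 of 1436 were higher (8.57%) and 822 lower (57.2%), the median being -0.69. Taken array by array against the IgG mean, the 3 eIF4E arrays gave 0.52 to 0.58 in the shortest quintile and -0.70 to -0.65 in the longest.

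Within the 54 gene groups with a value, the correlation was below 0 in 48. Spearman's correlation with gene length was -0.65 over 28 genes of complex I, -0.68 over 50 mitosis genes, -0.65 over 38 genes of coats and translocon, -0.56 over 38 core spliceosome genes and -0.54 over 41 polymerase genes. It was near 0 for cohesin (-0.088) and S100 and annexin genes (0.014). The other 5 groups were above 0, with hnRNPs at 0.066, RAB GTPases at 0.11 and TRiC and prefoldin at 0.18 over 12 genes. Keratins were at 0.31 over 6, with the pseudogene KRT8P12 among them, and elongation and termination factors at 0.33 over 8. Median gene lengths were 12304 bases in complex I, 8605 in the mitochondrial ribosome, 84135 in chromatin regulators and 74492 in cohesin. Cytosolic ribosomal genes, with a median length of 5035 bases, were an exception, with a median difference of -0.22. In untreated cells the correlation over all genes was -0.46, and with the difference between treatments it was -0.045. Mean signal over the 12 arrays correlated with the difference at 0.055, and the GC percent of the first 50 bases of 6055 genes at 0.040. Messenger and protein lengths were not used here. The 3' to 5' ratios and the Alu signal given above separate the same arrays, and their part in the order by length was not tested.

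**Figure D4:**
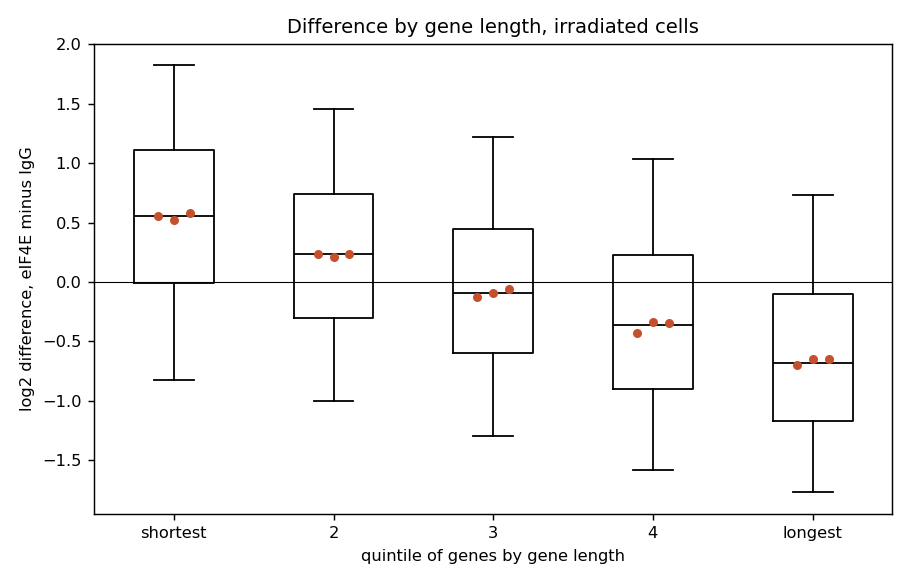
Log2 difference (eIF4E minus IgG, irradiated cells) by quintile of gene length, 1436 or 1435 genes each. Boxes are quartiles with the median as a line, whiskers the 5th and 95th percentile, and the 3 points the medians of the single eIF4E arrays against the IgG mean. Medians fall from 0.55 in the shortest to -0.69 in the longest quintile, and the boxes overlap between neighbours.

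Genes of chromosomes 19 and 22 had the highest median differences, 0.28 over 455 genes and 0.25 over 173, and those of chromosomes 13 and 4 the lowest, -0.30 over 127 and -0.27 over 243. After the median of its length quintile was taken from each gene, chromosome 22 was at 0.23 and chromosome 19 at 0.12, and chromosomes 13 and 4 at 0.045 and -0.046. These are descriptions of 1 set of arrays, with no test.

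The design asks whether irradiation changed what eIF4E held. The difference between the precipitates was taken in irradiated and in untreated cells, from different arrays, and the 2 were subtracted. With limma, 0 of 7178 genes (0.0%) passed an adjusted p of 0.05, and the smallest adjusted p was 0.999. At an unadjusted p under 0.05 there were 216 genes (3.01%). The SE of such a difference was 0.27 in the median gene, and a gene that did not pass is not shown to be the same. Over all genes the 2 differences correlated at 0.94 (Pearson), as a description. Of the 4273 genes called in irradiated cells, 3681 were called in untreated cells with the same sign and 0 with the opposite sign, and 4246 had the same sign, called or not.

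**Figure D5:**
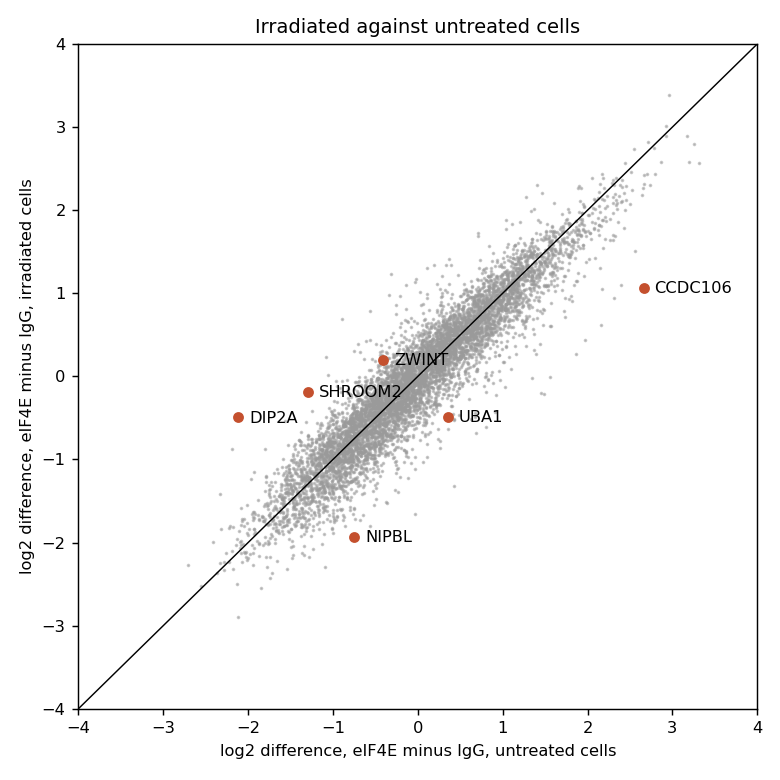
Log2 difference (eIF4E minus IgG) in untreated cells (x axis) and irradiated cells (y axis), 1 point for each of 7178 genes from different sets of 6 arrays. The solid line is equality, and the 6 genes named for the smallest p of the difference between treatments are marked. Points follow the line, with a correlation of 0.94.

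The genes nearest to a difference between treatments are given as values, none past the threshold. DIP2A, a protein of acetyl-CoA metabolism, had signals of 118, 146 and 171 with IgG and 78.7, 88.5 and 131 with eIF4E in irradiated and 295, 277 and 251 with IgG and 65.5, 65.4 and 29.2 with eIF4E in untreated cells. Its difference between precipitates was -0.49 ± 0.27 after irradiation and -2.12 ± 0.27 without (unadjusted p = 0.000548, adjusted p = 0.999 by limma). CCDC106 was at 1.06 ± 0.27 after irradiation and 2.66 ± 0.27 without (unadjusted p = 0.000719). NIPBL was at -1.93 ± 0.22 and -0.75 ± 0.22 (unadjusted p = 0.0018), with untreated signals of 383, 398 and 451 with IgG and 220.3, 285 and 213 with eIF4E. UBA1, the enzyme that starts ubiquitination, was at -0.48 ± 0.17 and 0.35 ± 0.17, SHROOM2, an actin regulator, at -0.19 ± 0.23 and -1.30 ± 0.23, and ZWINT, a kinetochore protein, at 0.20 ± 0.13 and -0.41 ± 0.13 (unadjusted p = 0.00256, 0.00387 and 0.00434).

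Group medians of both treatments are given side by side, with no test. Complex I was at 1.15 in irradiated and 1.14 in untreated cells, the mitochondrial ribosome at 1.07 and 1.16, cohesin at -1.24 and -1.11 and chromatin regulators at -1.27 and -0.97. Cap-binding genes were at -0.55 and -0.48, and cytosolic ribosomal genes at -0.22 and -0.37. Among repair and checkpoint genes, 0 of the 25 homologous recombination, 13 end joining, 22 checkpoint and 35 excision repair genes passed for the difference between treatments, as in the array as a whole. EIF4EBP1 was at 2.38 ± 0.19, BRCA1 at -0.86 ± 0.20, BAX at 1.68 ± 0.15 and CDKN1A at 0.29 ± 0.26 in untreated cells.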

How the data were processed

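RNA from eIF4E and IgG precipitates of MDA-MB-231 cells was hybridized to Affymetrix arrays of 22277 probe sets, 3 arrays in each of 4 groups. The authors deposited MAS5 signals, an intensity on a linear scale, per the submitters' processing notes. No source used here gives its version. The trimmed mean (2% off each end) was 500.2 on every array. The values give no read depth, so the number of arrays limits the precision.

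Probe sets were named from the platform annotation, updated by gene identifier. Of 22215 that are not controls, 19064 had 1 gene, 1043 several and 2108 none, and the last 2 kinds were left out of the gene results. The brightest probe set stood for each of 11963 genes, and a name ending in _x_at was used only where there was no other. The 7178 genes above the 40th percentile of mean signal (57.4) were tested. Log2(signal + 16) was fitted with limma 3.58.1 in R 4.3.3 over all 12 arrays, with 1 mean per group, a variance trend and Benjamini-Hochberg adjustment. Single control values were compared by exact permutation. The script was tested on simulated data. Figures were drawn with matplotlib 3.10.9.

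The members, gene lists, naming rule and tests were chosen with earlier results of these data known. The rule named up to 12 genes in each direction with no overlap of arrays and a mean signal of at least 100 in the dimmer group, the 3 tested members at either end of each list, the 3 smallest p in each direction of the difference between treatments, and a fixed set of genes. Alternatives covered the pseudocount (1 and 64), the filter, scaling, variance model, array weights, samples in the fit, a minimum fold, probe set means and each array left out. The labels call replicates biological and name no extraction, slide or scan batch, and all arrays numbered 1 were left out together as an alternative.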

Additional observations from a re-analysis of the deposited data

Results flagged for a closer look

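Probe sets that carry several genes or none took no part in the gene results. Of 1243 such probe sets above the same signal filter, 295 were called higher with eIF4E than with IgG in irradiated cells and 397 lower (55.7% called in all, limma with Benjamini-Hochberg adjustment), against 59.5% of the genes. They are given because they hold signal outside the genes described.

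Among genes whose arrays did not overlap in either treatment, 3844 differed between the precipitates in the same direction in both and 6 in opposite directions. None of the 6 passed the threshold in irradiated cells.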

How the results depend on the processing

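Over 7178 genes the count of 4273 called was 4246 and 4300 with pseudocounts of 1 and 64, 4180 after quantile normalization, 4233 after centring and also without the variance trend, 4347 with array weights, 3928 with probe set means and 4028 with only the 6 arrays of irradiated cells. It was 4122 without a filter and 3341 with a filter at the 60th percentile, where the set of genes tested differs. Leaving out 1 irradiated array gave 3771 to 4090, and 1 untreated array 4150 to 4348. A minimum difference of 1.5-fold lowered it to 1593 (727 higher and 866 lower), by the construction of that test. The difference between treatments had 0 calls under each of these that kept all 4 groups, and with the replicate block. Same-numbered IgG and eIF4E arrays deviated together at correlations of 0.277, 0.182 and 0.034, and differently numbered ones at -0.253 to 0.134. The labels do not say whether the numbers pair arrays, so the replicate block was used as an alternative only. With the replicate block 4486 genes were called, and 4334 with the block and only the 6 arrays (added after seeing the data). CDKN1A also passed with either block (0.51, adjusted p = 0.0113 and 0.0303). The correlation of gene length with the difference was -0.47, and -0.49 over the 5449 genes with a mean signal of at least 200. VEGFA changed sign to 0.32 with probe set means, and the cause was not tested. Of 54 group medians, 51 moved by more than the spread between arrays under at least 1 alternative. Dim genes limit the sizes given, since the pseudocount shrinks them.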
